A study of Arabidopsis with 22 samples.

Results

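The comparison described here asked whether loss of *LUX* changed the transcriptome of Arabidopsis differently in plants with and without constitutive defense, 1 h after light onset (ZT1). It used 12 of the 22 libraries in the series, chosen by genotype and time alone: 3 each of Col-0 (wild type), *lux-1*, *acd6-1* and the double mutant *acd6-1lux-1*, all from whole plants 25 days old, in the Col-0 accession, grown in 12 h light and 12 h dark. The measure was the interaction, the *acd6-1lux-1* minus *acd6-1* difference less the *lux-1* minus Col-0 difference, both on log2(RPKM + 1), where RPKM is the read count scaled by transcript length and by the mapped reads of the library. A positive interaction means that the *lux-1* effect was more positive in the *acd6-1* background. The double mutant was selected from the F2 of a cross between the single mutants with markers for the 2 mutations, so other parts of its genome may come from either parent, and *lux-1* was followed through 1 allele. The labels call the replicates separate samples without naming their source plants, and p-values measure the spread between these samples.

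*LUX* encodes a MYB-like transcription factor of the evening complex, in which it acts with ELF3 and ELF4 to repress morning and daytime clock genes and growth genes around dusk. *ACD6* encodes an ankyrin-repeat membrane protein, and the gain-of-function allele *acd6-1* keeps salicylic acid (SA) defense switched on and dwarfs the plant. SA acts mainly against biotrophic pathogens and jasmonic acid (JA) against insects and necrotrophs, and the 2 hormones often act against each other.

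The 12 libraries held between 10306552 and 16224975 mapped reads. Mapping ranged from 79.84% to 81.59% of reads in 11 libraries and was 60.51% in *acd6-1lux-1* replicate 3, where chloroplast transcripts made up 0.661% of mapped reads (0.014% to 0.024% elsewhere). *LUX* transcript does not check the *lux-1* labels, because a mutant transcript can still be counted. It was at 3.53, 2.43 and 3.42 RPKM in Col-0, 7.48, 5.20 and 4.44 in *lux-1*, 2.22, 2.68 and 4.21 in *acd6-1* and 7.71, 7.03 and 6.29 in *acd6-1lux-1*. The *LUX* interaction was 0.33 ± 0.25 (SE, limma adjusted p = 0.42), and that of *ACD6* was 0.39 ± 0.28 (adjusted p = 0.39). *ACD6* transcript was higher in all 6 libraries carrying *acd6-1* than in the other 6. In whole plants, fewer cells of a type and less RNA per cell cannot be told apart.

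The effect of *lux-1* differed between backgrounds for 3474 of 21666 genes tested (16.0%, limma with Benjamini-Hochberg adjusted p under 0.1, called passing below), with 1657 interactions higher and 1817 lower. Of these, 659 genes (3.04%) had an interaction beyond 1 on the log2 scale and are called changed, 240 higher and 419 lower (1.11% and 1.93% of genes tested). The individual *lux-1* differences of 512 of the 659 did not overlap between backgrounds, and 14.4% of all genes tested met that criterion. The median interaction over all genes was 0.005, and the median *lux-1* effects were 0.085 in Col-0 and 0.095 in *acd6-1*. Across the 21666 genes, which are not independent replicates, the *lux-1* effects in the 2 backgrounds had a Pearson correlation of 0.391 with no shared library.

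The counts moved with single libraries. The number passing was 1711 without Col-0 replicate 2, 1886 without *lux-1* replicate 1, 1786 without *acd6-1* replicate 3 and 1615 without *acd6-1lux-1* replicate 2, and 5166 without *acd6-1lux-1* replicate 3, the library with low mapping. The number changed was 431, 429, 461, 390 and 938 in the same order. With edgeR on recovered reads the changed genes numbered 451 higher and 450 lower, so the excess of lower interactions depended on the model.

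The 659 changed genes fell into 5 patterns. Across all genes, the *lux-1* effect passed for 17.8% in Col-0 and 33.7% in *acd6-1*. In 353 (53.6%) the *lux-1* effect passed in the *acd6-1* background alone, 111 with a higher and 242 with a lower interaction. In 141 (21.4%) it passed in Col-0 alone, in 69 (10.5%) in both with opposite directions, in 63 (9.6%) in both with the same direction and in 33 (5.0%) in neither. Of the 63 with the same direction, 42 had the larger effect in Col-0, and 36 of these were larger falls in *lux-1* than in *acd6-1lux-1*. Without *acd6-1lux-1* replicate 3 the counts were 563, 164, 96, 69 and 46.

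**Figure D1:**
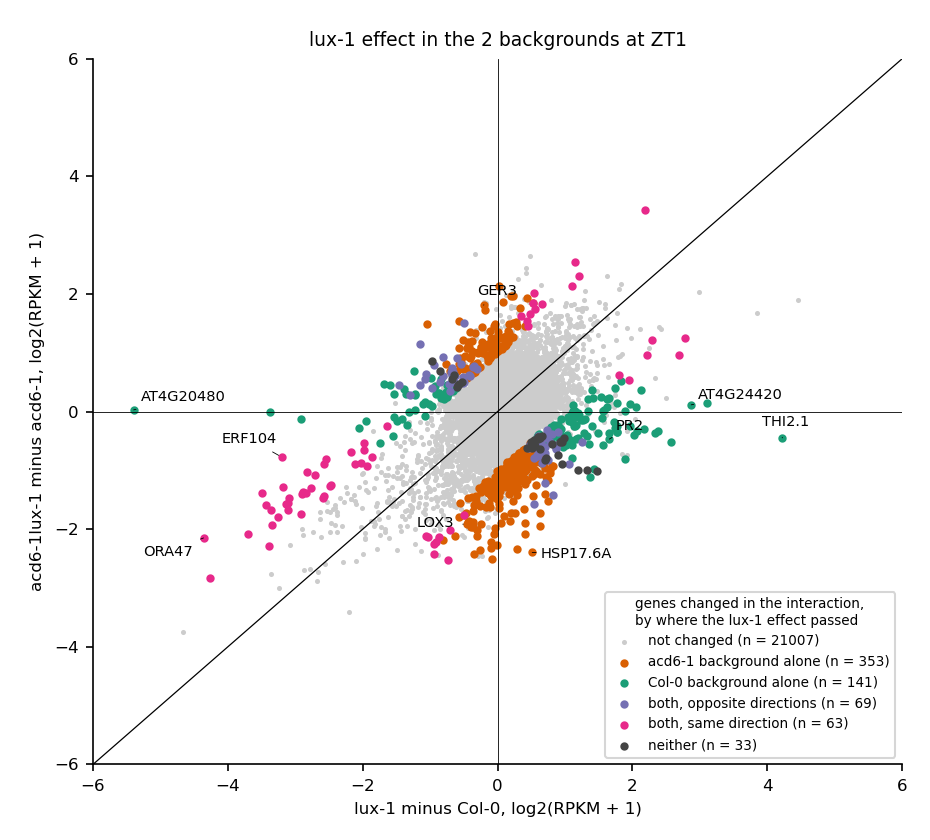
Each point is 1 of 21666 genes, with the *lux-1* minus Col-0 difference on the x axis and the *acd6-1lux-1* minus *acd6-1* difference on the y axis, both in log2(RPKM + 1) at ZT1, and the diagonal marking equal effects. Orange points, the 353 changed genes whose *lux-1* effect passed in *acd6-1* alone, lie above and below the centre, while *ORA47* and *ERF104* lie at the left, where both effects were falls and the fall in Col-0 was larger.

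In the list of SA synthesis genes and regulators, 8 of 24 tested passed lower, 0 passed higher and 16 did not pass, beside 8.39% and 7.65% of all genes. The median interaction of the list was -0.52, with 20 negative and 4 positive, with a median *lux-1* effect of 0.15 in Col-0 and -0.51 in *acd6-1*. The *acd6-1* effect itself had a median of 2.74 with *LUX* intact and 1.98 in *lux-1*. Fewer members passed without Col-0 replicate 2 or *lux-1* replicate 1 (3 each) and without *acd6-1* replicate 2 or 3 or *acd6-1lux-1* replicate 2 (4 each), and *PAD4*, *PBS3* and *NPR1* passed without any 1 library. The count rose to 10 without *lux-1* replicate 3 and to 11 without *acd6-1lux-1* replicate 3.

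*PAD4*, the partner of EDS1 in SA amplification, was at 10.5, 8.82 and 11.7 RPKM in Col-0, 18.6, 16.4 and 15.5 in *lux-1*, 157, 206 and 213 in *acd6-1* and 133, 96.8 and 147 in *acd6-1lux-1*. The mutation raised it by 0.66 in Col-0 (adjusted p = 0.0085) and lowered it by 0.62 in *acd6-1* (adjusted p = 0.0064), an interaction of -1.28 ± 0.21 (adjusted p = 0.0029). The 3 *lux-1* libraries lay above all Col-0 libraries, and the 3 double mutant libraries below all *acd6-1* libraries. *PBS3*, which encodes the enzyme that joins isochorismate to glutamate in SA synthesis, was at 4.97 to 6.87 RPKM in Col-0, 6.21 to 10.2 in *lux-1*, 265, 387 and 420 in *acd6-1* and 187, 96.7 and 231 in *acd6-1lux-1*. Its interaction was -1.46 ± 0.40 (adjusted p = 0.036), and the groups overlapped in the Col-0 background but not in *acd6-1*. *NPR1*, a receptor of SA, had a smaller interaction of -0.55 ± 0.13 (adjusted p = 0.020).

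*ICS1*, the isochorismate synthase that starts pathogen-induced SA synthesis, had an interaction of -1.002 (adjusted p = 0.056), *EDS1* one of -0.63 (adjusted p = 0.071) and *EDS5*, the isochorismate exporter, one of -1.22 (adjusted p = 0.039). All 3 calls ended without Col-0 replicate 2 or *lux-1* replicate 1 (interactions of -0.95 and -0.98 for *ICS1*, -0.55 and -0.48 for *EDS1* and -1.02 and -0.99 for *EDS5*). Those of *ICS1* and *EDS1* also ended without *acd6-1* replicate 2 or 3 or *acd6-1lux-1* replicate 2 (-0.94, -0.91 and -0.67 for *ICS1*, -0.59, -0.56 and -0.54 for *EDS1*), that of *ICS1* without *lux-1* replicate 2 (-0.93) and that of *EDS1* without Col-0 replicate 1 (-0.65). *ICS1* was at 9.68 to 11.6 RPKM in Col-0 and 8.94 to 11.6 in *lux-1*, so the difference lay between *acd6-1* (186, 254 and 263 RPKM) and the double mutant (129, 72.0 and 160 RPKM). *NPR3* did not pass (-0.20, adjusted p = 0.71).

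Among 15 SA-responsive genes 5 passed lower and 0 higher, beside 8.39% and 7.65% of all genes, with a median interaction of -0.50. Here the difference came mainly from Col-0, where the median *lux-1* effect was 0.83, against -0.17 in *acd6-1*. *PR2*, a secreted glucanase of the SA response, was at 28.0, 17.1 and 37.1 RPKM in Col-0, 95.2, 83.2 and 76.5 in *lux-1*, 1230, 1436 and 1282 in *acd6-1* and 1090, 649 and 1210 in *acd6-1lux-1*. It rose by 1.66 in *lux-1* (adjusted p = 0.00068) and differed by -0.47 in *acd6-1lux-1* (adjusted p = 0.23), and the interaction was -2.13 ± 0.39 (adjusted p = 0.0056). *PR5*, a thaumatin-like protein gene, had the same form, with an effect of 1.05 in Col-0 and -0.17 in *acd6-1* and an interaction of -1.22 ± 0.31 (adjusted p = 0.025). *PR1* varied widely between libraries, from 1156 to 3602 RPKM in *acd6-1lux-1* alone, and its interaction of -2.24 ± 0.92 did not pass (adjusted p = 0.13). The count of SA-responsive genes passing was 2 without Col-0 replicate 2 and 3 without each of 6 other libraries (Col-0 replicate 1, *lux-1* replicate 1, the 3 of *acd6-1* and *acd6-1lux-1* replicate 2), while *PR2* and *PR5* passed without any 1. The count rose to 7 without *lux-1* replicate 3.

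**Figure D2:**
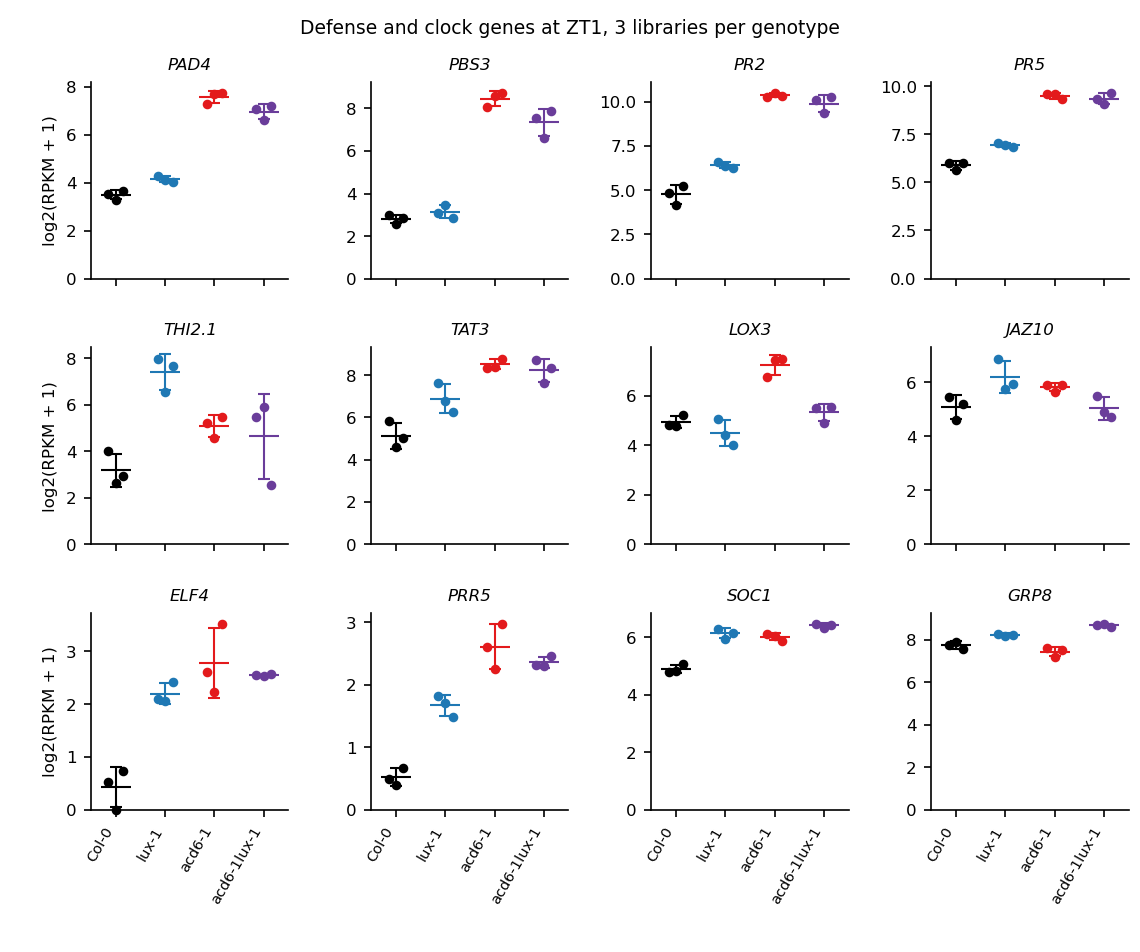
Each panel gives log2(RPKM + 1) of 1 gene at ZT1, with 3 points per genotype for the libraries and a bar with whiskers for their mean and SD. *PR2* and *PR5* rise from Col-0 to *lux-1*, *LOX3* falls from *acd6-1* to *acd6-1lux-1* with no overlap, and *THI2.1* has 1 low double mutant library at 4.79 RPKM.

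Pattern-triggered immunity (PTI) is the response to microbial patterns at the cell surface. In its list 5 of 24 genes passed lower and 0 higher (median -0.22), beside 8.39% and 7.65% of all genes. *RBOHD*, the NADPH oxidase of the immune oxidative burst, was at 46.1, 51.8 and 63.0 RPKM in Col-0, 52.7, 41.6 and 46.5 in *lux-1*, 134, 239 and 226 in *acd6-1* and 87.7, 69.4 and 95.8 in *acd6-1lux-1*. It fell by 1.202 in the double mutant (adjusted p = 0.00021) and differed by -0.18 in *lux-1*, an interaction of -1.02 ± 0.27 (adjusted p = 0.029). It was the only member of the list to pass without any 1 library. The list count was 1 without Col-0 replicate 2, *lux-1* replicate 1 or *acd6-1* replicate 2 or 3, 2 without *lux-1* replicate 2 or *acd6-1lux-1* replicate 2, and 3 without Col-0 replicate 1. It rose to 6 without *lux-1* replicate 3, *acd6-1* replicate 1 or *acd6-1lux-1* replicate 1, and to 7 without *acd6-1lux-1* replicate 3. *MPK3*, *WRKY22* and *WRKY33* did not pass, at -0.44, -0.36 and 0.06.

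The JA genes that passed did so lower, in more than 1 form. Of 8 JA markers, 4 passed lower (8.39% of all genes did), all 8 were negative, and the median interaction was -1.90. Their median *lux-1* effect was 1.80 in Col-0, where 7 of the 8 rose (13.2% of all genes tested rose), and -0.23 in *acd6-1*. *THI2.1*, a JA-induced thionin gene, was at 14.9, 5.25 and 6.56 RPKM in Col-0, 254, 92.6 and 204 in *lux-1*, 35.9, 22.99 and 43.5 in *acd6-1* and 43.5, 59.5 and 4.79 in *acd6-1lux-1*. All 3 *lux-1* libraries lay above every other library, and *acd6-1lux-1* replicate 3 was the lowest of the 12. The interaction was -4.67 ± 1.098 (adjusted p = 0.019). *TAT3*, a tyrosine aminotransferase gene induced by JA, rose by 1.74 in *lux-1* and differed by -0.28 in *acd6-1lux-1*, an interaction of -2.03 ± 0.47 (adjusted p = 0.018). *BBD1*, a nuclease gene of the JA response, had an interaction of -1.32 ± 0.30 (adjusted p = 0.016), with a fall of 0.74 in the double mutant.

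*VSP1*, a vegetative storage protein gene, was at 68.4 to 155 RPKM in Col-0, 704 to 1325 in *lux-1*, 69.2 to 191 in *acd6-1* and 34.2 to 257 in *acd6-1lux-1*. Its interaction of -2.97 (adjusted p = 0.061) lost its call without Col-0 replicate 2 (-2.65), *lux-1* replicate 1 (-2.71) or *acd6-1* replicate 1 or 3 (-2.58 and -3.01). *VSP2* and *PDF1.2A* did not pass (-1.54 and -1.77). Summed over the 8 markers, levels were 1161, 652 and 1051 RPKM in Col-0, 4257, 2827 and 3047 in *lux-1*, 1503, 1022 and 1159 in *acd6-1* and 1455, 969 and 916 in *acd6-1lux-1*. In this sum, which the most abundant genes weigh most, *lux-1* alone stood apart. Gene by gene, *acd6-1* also raised these markers. Its median effect on the 8 was 2.27 with *LUX* intact and -0.97 in *lux-1*, beside 0.03 and 0.06 over all genes.

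Floral transcripts also differed between libraries. The 7 floral organ markers summed to 3.83 to 7.87 RPKM in Col-0, 36.2, 16.3 and 12.9 in *lux-1*, 9.14 to 14.05 in *acd6-1* and 22.9, 26.1 and 5.43 in *acd6-1lux-1*, and 6 markers of pollen coat and tapetum to 15.8 in *lux-1* replicate 1 and 5.94, 2.74 and 0.179 in the double mutant, against at most 0.567 in the other libraries. The library with the highest JA sum, *lux-1* replicate 1, also had the highest floral sum, and the low *THI2.1* library the lowest floral sum of the mutants carrying *lux-1*. The order was not the same throughout: *acd6-1lux-1* replicates 1 and 2 had higher floral sums than *lux-1* replicates 2 and 3 (22.9 and 26.1 against 16.3 and 12.9 RPKM) but lower JA sums (1455 and 969 against 2827 and 3047). Beyond these levels, the part of floral tissue in the JA result was not tested. Of the 7 floral markers only *SEP1* passed the interaction, at -1.31 (adjusted p = 0.097), and 17 of the 22 libraries ended that call when left out singly. The 7 root markers summed to at most 0.385 RPKM in any library of ZT1, and the seed markers in the table to at most 0.342.

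For some JA genes the *lux-1* effect passed in the *acd6-1* background. *LOX3*, a lipoxygenase gene of JA synthesis, was at 27.1, 26.5 and 35.7 RPKM in Col-0, 32.0, 20.0 and 15.2 in *lux-1*, 108, 174 and 180 in *acd6-1* and 44.5, 29.0 and 45.8 in *acd6-1lux-1*. It differed by -0.45 in *lux-1* (adjusted p = 0.25) and fell by 1.92 in the double mutant (adjusted p = 2.8e-05), an interaction of -1.47 ± 0.34 (adjusted p = 0.017). The double mutant lay near the Col-0 range, and its libraries did not overlap with those of *acd6-1*. *JAZ10*, a JA-induced repressor of JA signaling, passed in Col-0 alone and had an interaction of -1.88 ± 0.51 (adjusted p = 0.034), from a rise in Col-0 (adjusted p = 0.058) and a difference of -0.78 in *acd6-1*. Of the genes of JA synthesis and turnover 3 of 15 passed lower, and of JA signaling 5 of 21, beside 8.39% of all genes. No gene of either list passed higher (7.65% of all genes did), and the medians were -0.42 and -0.34. JA signaling fell to 1 without Col-0 replicate 2 and to 2 without Col-0 replicate 1, *lux-1* replicate 1, *acd6-1* replicate 2 or 3 or *acd6-1lux-1* replicate 2, and rose to 8 without *acd6-1lux-1* replicate 1. JA synthesis fell to 1 without *lux-1* replicate 1, *acd6-1* replicate 3 or *acd6-1lux-1* replicate 2, and rose to 4 without Col-0 replicate 3 or *acd6-1lux-1* replicate 1. *JAZ5*, of the same repressor family, was at 70.4, 77.8 and 98.2 RPKM in Col-0, 85.9, 45.1 and 54.8 in *lux-1*, 107, 172 and 193 in *acd6-1* and 61.0, 50.6 and 51.8 in *acd6-1lux-1*. It fell by 1.47 in the double mutant (adjusted p = 0.00019), below every *acd6-1* library, and differed by -0.44 in *lux-1*, where the libraries overlapped those of Col-0. Its interaction of -1.03 (adjusted p = 0.057) did not pass without Col-0 replicate 1 or 2 (-0.93 and -1.0), *lux-1* replicate 1 (-0.77), *acd6-1* replicate 2 or 3 (-0.95 and -0.86) or *acd6-1lux-1* replicate 2 (-0.98). *JAZ1*, *JAZ7* and *JAZ8* did not pass.

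**Figure D3:**
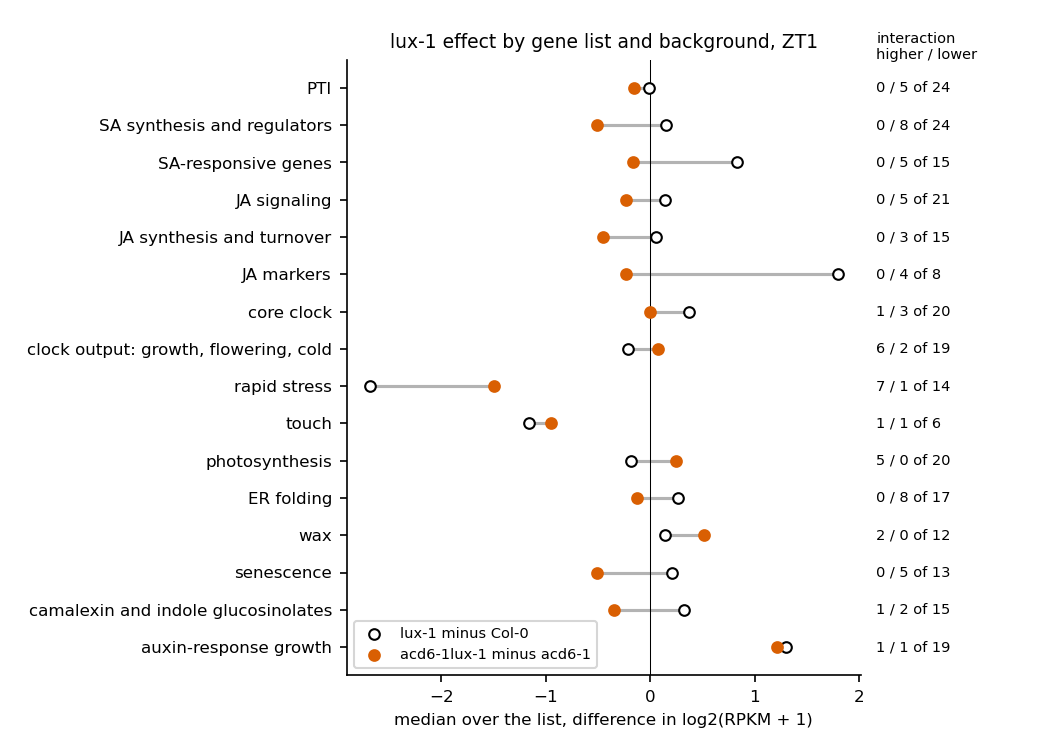
Open circles give the median *lux-1* minus Col-0 difference over each gene list and filled circles the median *acd6-1lux-1* minus *acd6-1* difference, in log2(RPKM + 1) at ZT1, with the number of genes passing the interaction higher and lower at the right. The widest gap is that of the 8 JA markers (1.80 and -0.23), and rapid stress genes are far below 0 in both backgrounds (-2.69 and -1.496).

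Transcription factor genes of the rapid stress response moved the other way, because they fell in both backgrounds but fell further in Col-0. Of 14, 12 fell in *lux-1* (4.61% of all genes tested fell) and all 14 fell in *acd6-1lux-1* (10.9% of all genes). The interaction passed higher for 7 and lower for 1, beside 7.65% and 8.39% of all genes, and the count was 7 to 9 without each single library. *ERF104*, an ethylene response factor released by MPK6 in flagellin signaling, was at 98.1, 104 and 93.3 RPKM in Col-0, 8.49, 11.7 and 9.63 in *lux-1*, 132, 127 and 131 in *acd6-1* and 66.6, 65.1 and 98.2 in *acd6-1lux-1*. The fall was 3.19 in Col-0 and 0.78 in *acd6-1*, an interaction of 2.41 ± 0.21 (adjusted p = 4.3e-06), and *lux-1* was lower than every other library.

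*ORA47*, a wound-induced activator of JA synthesis genes, fell by 4.36 and 2.15 in Col-0 and *acd6-1* (2.21 ± 0.33, adjusted p = 0.0011), from 163, 220 and 222 RPKM in Col-0 to 6.99, 8.20 and 11.6 in *lux-1*, and from 166, 227 and 268 in *acd6-1* to 34.4, 49.0 and 65.3 in the double mutant. *ERF105*, a gene of the same family, had an interaction of 2.12 ± 0.30 (adjusted p = 0.0010). *ZAT10*, a zinc-finger repressor of stress responses, fell by 2.84 in Col-0 and 1.38 in *acd6-1*, an interaction of 1.46 ± 0.22 (adjusted p = 0.0013). In RPKM itself the order was reversed for *ZAT10*, because its level was higher in *acd6-1*: the fall in the *acd6-1* background exceeded that in Col-0, giving -161 RPKM for the same contrast. The sum of the 14 genes was also reversed in RPKM. It was 1076 to 1335 in Col-0, 165 to 221 in *lux-1*, 2558 to 3363 in *acd6-1* and 796 to 1231 in *acd6-1lux-1*, so it fell further in the *acd6-1* background. The most abundant genes weigh most in that sum. Among the 659 changed genes the sign on the RPKM scale was the same as on the log scale for 639 and the other for 20. The 1 member of the list that passed lower was *WRKY53*, which fell in the *acd6-1* background alone (-1.26) and had an interaction of -1.13 (adjusted p = 0.017). *WRKY53* is named here after its value was seen.

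Of 6 touch genes 1 passed higher and 1 lower, beside 7.65% and 8.39% of all genes, with 3 interactions of each sign (median 0.16). *TCH2*, a calmodulin-like gene, fell in both backgrounds and further in Col-0, from 336, 385 and 338 RPKM in Col-0 to 90.5, 93.3 and 89.0 in *lux-1*, and from 352, 407 and 380 in *acd6-1* to 173, 197 and 228 in *acd6-1lux-1* (1.01 ± 0.15, adjusted p = 0.0013). It was the only touch gene to pass without any 1 library. *CML39*, also calmodulin-like, passed in the other direction (-2.40, adjusted p = 0.061), at 0.615 to 3.58 RPKM in Col-0, 3.83 to 8.72 in *lux-1*, 0.856 to 3.47 in *acd6-1* and 0.153 to 0.884 in *acd6-1lux-1*. Its call ended without Col-0 replicate 2 or 3 (-2.16 and -2.14), *lux-1* replicate 1 (-2.07), *acd6-1* replicate 1 or 3 (-2.03 and -2.49) or *acd6-1lux-1* replicate 2 (-2.27). The 6 touch genes together summed to 1045 to 1193 RPKM in Col-0, 327 to 526 in *lux-1*, 2640 to 3105 in *acd6-1* and 1126 to 1647 in *acd6-1lux-1*.

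**Figure D4:**
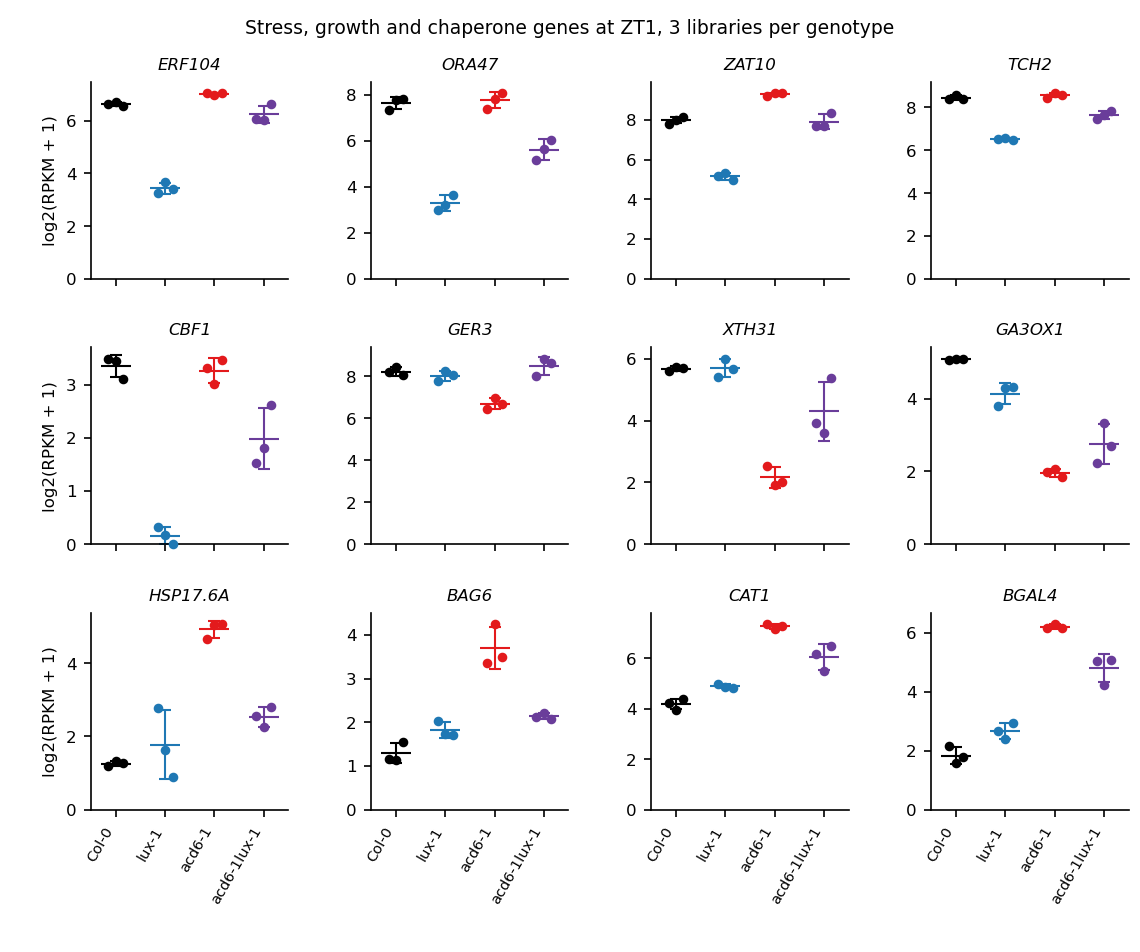
Each panel gives log2(RPKM + 1) of 1 gene at ZT1, with 3 points per genotype for the libraries and a bar with whiskers for their mean and SD. The falls of *ERF104*, *ORA47*, *ZAT10*, *TCH2* and *CBF1* are larger from Col-0 to *lux-1* than from *acd6-1* to *acd6-1lux-1*, and *GER3* is lower in *acd6-1* than in the other genotypes, including the double mutant.

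In the core clock 1 of 20 genes passed higher and 3 lower (median -0.03), beside 7.65% and 8.39% of all genes. *ELF4* and *PRR5* were the members with lower interactions that passed without any 1 library, and both were below 1 RPKM in Col-0. *ELF4*, the evening complex partner of LUX, was at 0.444, 0 and 0.659 RPKM in Col-0, 3.29, 3.19 and 4.36 in *lux-1*, 5.14, 3.67 and 10.5 in *acd6-1* and 4.84, 4.81 and 4.91 in *acd6-1lux-1*. It rose in *lux-1* by 1.78 (adjusted p = 0.0021) and differed by -0.24 in the double mutant, an interaction of -2.01 ± 0.48 (adjusted p = 0.019). *PRR5*, a daytime repressor of morning clock genes, was at 0.315 to 0.589 RPKM in Col-0, 1.79 to 2.52 in *lux-1*, 3.76 to 6.83 in *acd6-1* and 3.89 to 4.50 in *acd6-1lux-1* (-1.40 ± 0.38, adjusted p = 0.033). For both genes *acd6-1* was already above Col-0 without the *lux-1* mutation, and the libraries of *acd6-1* and the double mutant overlapped. A rise in *acd6-1* was not particular to them: the median *acd6-1* effect over the core clock list was 0.50, beside 0.03 over all genes. The other clock calls were weaker: *PRR7* passed lower (-0.36, limma adjusted p = 0.087) and *LHY* higher (0.46, adjusted p = 0.051). That of *PRR7* ended without any single Col-0 library of ZT1 (-0.40, -0.33 and -0.36 for replicates 1 to 3), among others, and with quantile normalization (-0.27). That of *LHY* ended without *acd6-1* replicate 3 (0.45). *BOA*, *GI*, *LNK1*, *LNK2* and *PRR9* did not pass.

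Of 19 clock output genes 6 passed higher and 2 lower, beside 7.65% and 8.39% of all genes. *CBF1*, a cold-response activator, was at 10.2, 9.94 and 7.58 RPKM in Col-0, 0.246, 0.119 and 0 in *lux-1*, 8.93, 7.04 and 10.1 in *acd6-1* and 1.87, 2.52 and 5.14 in *acd6-1lux-1*. It fell in both backgrounds, by 3.19 and 1.28, and the interaction was 1.91 ± 0.38 (adjusted p = 0.0085). *CBF2* was similar (1.86 ± 0.46, adjusted p = 0.024), and *CBF3* did not pass (0.58, adjusted p = 0.43). Both *CBF1* and *CBF2*, counted among the 6, lie in the chromosome 4 stretch described below. The part of that stretch and that of the *lux-1* mutation in their interactions cannot be told apart. *COR15B*, a chloroplast cold-protection gene, differed by -0.51 in *lux-1* and rose by 1.23 in the double mutant, where it was at 20.3 to 28.0 RPKM against 7.50 to 11.3 in *acd6-1* (1.73 ± 0.35, adjusted p = 0.0087).

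*SOC1*, a flowering activator, rose in both backgrounds and more in Col-0: from 26.9, 27.6 and 32.4 RPKM to 77.4, 60.7 and 70.9 in *lux-1*, and from 68.3, 65.5 and 58.2 in *acd6-1* to 87.4, 80.2 and 86.2 (-0.84 ± 0.13, adjusted p = 0.0019). The glycine-rich RNA-binding protein gene *GRP8* rose more in *acd6-1* (1.24) than in Col-0 (0.48), an interaction of 0.75 ± 0.16 (adjusted p = 0.011). Its relative *GRP7*, named after its value was seen, rose by at least 2.19 in each background. *PIF4*, *CDF1*, *CO* and *FT* did not pass. Of 19 auxin-response growth genes 14 rose in *lux-1* and 12 in *acd6-1lux-1* (13.2% and 22.8% of all genes rose). The interaction passed for 1 in each direction (median -0.19), beside 7.65% higher and 8.39% lower over all genes.

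Some genes that *acd6-1* had lowered had higher interactions. *GER3*, a germin-like cell wall protein gene under clock control, was at 293, 349 and 266 RPKM in Col-0, 217, 303 and 268 in *lux-1*, 86.5, 125 and 101 in *acd6-1* and 262, 462 and 398 in *acd6-1lux-1*. It rose in the double mutant by 1.81 (adjusted p = 2.8e-05) and differed by -0.21 in *lux-1*, an interaction of 2.02 ± 0.32 (adjusted p = 0.0022). The double mutant libraries overlapped the Col-0 range and lay above all *acd6-1* libraries. *XTH31*, a cell wall xyloglucan endohydrolase gene, was at 4.82, 2.79 and 3.06 RPKM in *acd6-1* and 14.2, 11.1 and 40.5 in *acd6-1lux-1*, against 41.8 to 63.6 in Col-0 and *lux-1* (2.11 ± 0.45, adjusted p = 0.013), and replicate 3 was the high value.

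*GA3OX1*, which makes bioactive gibberellin, had opposite effects, a fall of 0.94 in Col-0 (adjusted p = 0.0077) and a rise of 0.79 in *acd6-1* (adjusted p = 0.011). It was at 32.2 to 33.4 RPKM in Col-0, 12.9 to 19.2 in *lux-1*, 2.59 to 3.18 in *acd6-1* and 3.68 to 9.08 in *acd6-1lux-1*, so its interaction of 1.74 ± 0.30 (adjusted p = 0.0036) was a convergence of levels that remained apart. *CER2*, of wax synthesis, had an interaction of 1.07 ± 0.21 (adjusted p = 0.0081) and lies in the chromosome 4 stretch described below. Of 12 wax genes 2 passed higher and 0 lower, beside 7.65% and 8.39% of all genes. With 7 positive and 5 negative interactions, the wax median was 0.10, and *CER2* alone passed without any 1 library. All 20 photosynthesis genes had a positive interaction (median 0.43, over an *acd6-1* effect of -1.15), and 5 passed higher, beside 7.65% of all genes. None of those 5 calls held under quantile normalization, and the count was 0 without Col-0 replicate 1 or 2, *lux-1* replicate 1, *acd6-1* replicate 3 or *acd6-1lux-1* replicate 2, 1 without *acd6-1* replicate 1 or 2, and 8 or 9 without *lux-1* replicate 2 or *acd6-1lux-1* replicate 1. The 3 mesophyll markers, themselves photosynthesis genes, moved with this list: they summed to 37712 to 40964 RPKM in Col-0, 27920 to 37773 in *lux-1*, 16261 to 18753 in *acd6-1* and 17249 to 22511 in *acd6-1lux-1*, with 3 positive interactions (median 0.46), of which *CA1*, a carbonic anhydrase gene, passed (0.62, adjusted p = 0.067). The *CA1* call ended without any single Col-0 library (0.64, 0.59 and 0.62 for replicates 1 to 3), *lux-1* replicate 1 (0.50), *acd6-1* replicate 3 (0.55) or *acd6-1lux-1* replicate 2 (0.58), and with quantile normalization (0.35). The part of mesophyll content in the photosynthesis result was not tested.

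*HSP17.6A*, a small heat-shock protein gene, had the largest lower interaction of the 242 changed genes whose *lux-1* effect passed in *acd6-1* alone. It was at 1.27 to 1.505 RPKM in Col-0, 0.863 to 5.87 in *lux-1*, 24.5, 32.3 and 32.9 in *acd6-1* and 4.96, 3.75 and 5.97 in *acd6-1lux-1* (-2.91 ± 0.60, adjusted p = 0.010). The double mutant lay below all *acd6-1* libraries. *BAG6*, a co-chaperone gene induced by heat, had opposite effects of 0.54 and -1.56 (-2.10 ± 0.26, adjusted p = 0.00030), and *CAT1*, a catalase gene, of 0.70 and -1.22 (-1.92 ± 0.34, adjusted p = 0.0044). *BGAL4*, a beta-galactosidase gene, was at 1.99 to 3.43 RPKM in Col-0, 4.22 to 6.58 in *lux-1*, 70.6 to 77.95 in *acd6-1* and 17.98 to 32.9 in *acd6-1lux-1* (-2.24 ± 0.31, adjusted p = 0.00072). *GPAT5*, of suberin synthesis, had -2.497 ± 0.68 (adjusted p = 0.035) and fell by 2.08 in the double mutant.

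Senescence genes had 5 of 13 passing lower and 0 higher (median -0.82), beside 8.39% and 7.65% of all genes. *NYC1*, which encodes a chlorophyll b reductase, fell by 0.78 in the double mutant and differed by 0.34 in *lux-1* (-1.12 ± 0.27, adjusted p = 0.022), and it alone passed without any 1 library. The senescence count was 1 without Col-0 replicate 2, *lux-1* replicate 1 or *acd6-1lux-1* replicate 2, 2 without *acd6-1* replicate 3, and 3 without *acd6-1* replicate 1, Col-0 replicate 3 or *lux-1* replicate 2. It rose to 6 without *acd6-1lux-1* replicate 3. Of 17 genes of protein folding in the endoplasmic reticulum 8 passed lower (median -0.46), beside 8.39% of all genes. Among them was *BZIP60*, the transcription factor gene of the unfolded protein response (-0.84, adjusted p = 0.039, and -0.65 with adjusted p = 0.11 without *acd6-1lux-1* replicate 2). The folding count was 0 without *acd6-1lux-1* replicate 2, 1 without *lux-1* replicate 1, 2 without Col-0 replicate 2 or *acd6-1* replicate 3, and 3 without *acd6-1* replicate 2. It rose to 9 without *lux-1* replicate 3, *acd6-1* replicate 1 or *acd6-1lux-1* replicate 3. *CYP79B2*, of indole glucosinolate and camalexin synthesis, had an interaction of -1.105 ± 0.27 (adjusted p = 0.023). Of the 15 genes of that list 2 passed lower and 1 higher, beside 8.39% and 7.65% of all genes. That count of 3 was 1 without Col-0 replicate 3, *lux-1* replicate 1, *acd6-1* replicate 1 or *acd6-1lux-1* replicate 2, 5 without *acd6-1lux-1* replicate 3 and 6 without *lux-1* replicate 3.

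The largest positive interactions of nuclear genes, those of AT4G20480, AT4G19500 and AT4G19510, lay in a stretch of chromosome 4 between AT4G19500 and AT4G27050, which was chosen after values were seen. AT4G20480 was at 44.5, 48.8 and 46.5 RPKM in Col-0, 0.101, 0 and 0.310 in *lux-1*, 67.5, 57.1 and 64.0 in *acd6-1* and 65.9, 65.5 and 60.9 in *acd6-1lux-1*. The *lux-1* effect was -5.40 in Col-0 and 0.03 in *acd6-1*, an interaction of 5.43 ± 0.14 (adjusted p = 3.9e-14). *lux-1* was therefore at or near 0 while the double mutant, which carries the same *lux-1* mutation, was at the level of *acd6-1*. AT4G19500 (3.37 ± 0.13) and AT4G19510 (2.79 ± 0.13) had the same form, and AT4G24420 the reverse, at 7.78, 6.96 and 4.62 RPKM in *lux-1* and at most 0.557 elsewhere (-2.76 ± 0.28).

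Of 655 genes tested in the stretch 51 changed (7.79%), and of 21011 outside it 608 (2.89%). The ends of the stretch are genes picked for having changed, so these shares are no independent support for it. Of the 51, 17 had a *lux-1* effect that passed in Col-0 alone. *CBF1*, *CBF2*, *CER2*, *WRKY53*, *BGLU47*, *MSRB8*, AT4G21870 and AT4G25260, named here, lie within the stretch, and *ACD6* lies on the same chromosome outside it. The genotype of the stretch in each line was not measured here, so that its part in these interactions and that of the *lux-1* mutation cannot be told apart.

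At ZT13, 13 h after light onset, the same contrast passed for 127 genes (0.586%, with 74 higher, 0.342%, and 53 lower, 0.245%), with 2 libraries each of *acd6-1* and *acd6-1lux-1*. Of these, 72 had an absolute interaction beyond 1, and 24 of them had changed at ZT1 too, all 24 in the same direction, which is 3.64% of the 659 and 33.3% of the 72. The 2 times share no library. Of the 24, 12 lay in the chromosome 4 stretch, where 8 had an effect in Col-0 alone at ZT1. The first and last of these 12, AT4G19500 and AT4G27050, set the ends of the stretch, so that they lie in it is no finding. *COR15B* was also among the 24 (1.73 at ZT1 and 1.63 at ZT13). The 24 were chosen for passing at both times, so their shared direction is no independent support.

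The difference between the interactions at the 2 times passed for 84 genes (0.388%), 43 higher at ZT1 and 41 lower (0.198% and 0.189%), of which 35 had changed at ZT1. A total of 2443 genes had an unadjusted p under 0.05 for it, and at ZT13 alone 2418 had. *ERF104* had an interaction of 0.28 at ZT13 (difference 2.14, adjusted p = 0.023), and *BGAL4* one of 0.69 (difference -2.93, adjusted p = 0.023). These were the 2 named genes whose difference between times passed whichever of the 22 libraries was left out. For *PAD4*, *SOC1*, *ZAT10*, *GRP8* and *BAG6* the difference passed at an adjusted p of 0.062 and remained past the threshold in 11 to 15 of the 22 omissions. For *ORA47*, *XTH31*, *BGLU47* and AT4G21870 it passed at 0.082 to 0.089 and remained so in 6 or 7. *PR2*, *THI2.1* and *LOX3*, whose interactions passed at ZT1, did not pass the test of the difference between times (adjusted p = 0.17, 0.33 and 0.83). The 84 fell to 9 without *acd6-1lux-1* replicate 2 at ZT13 and rose to 162 without *acd6-1lux-1* replicate 1 at ZT1.

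**Figure D5:**
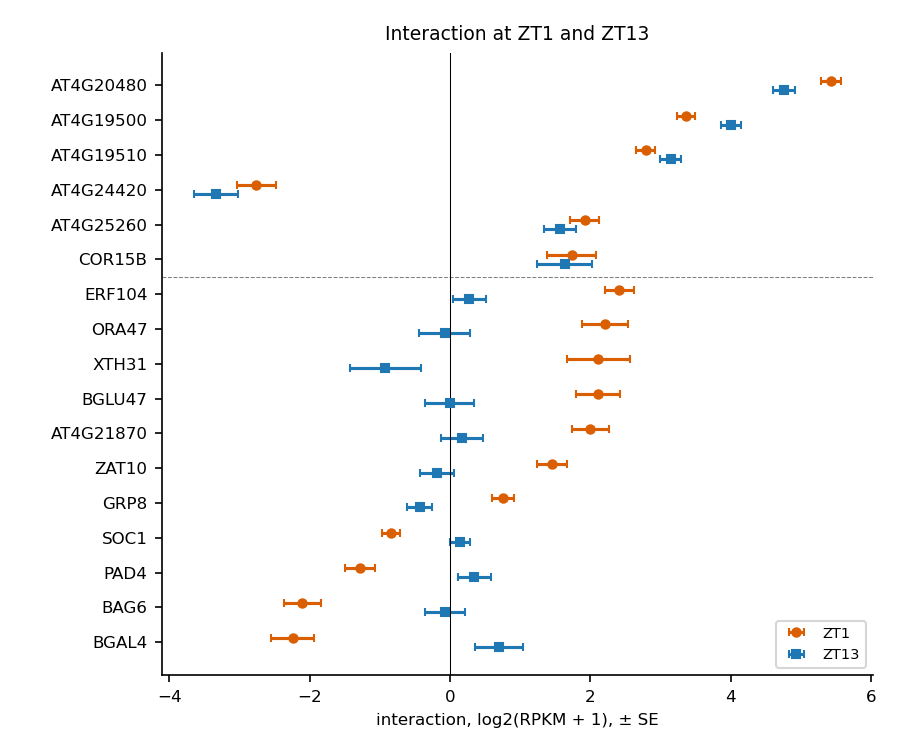
Points give the interaction at ZT1 (circles) and ZT13 (squares) in log2(RPKM + 1) with whiskers of 1 SE, for 6 genes changed at both times above the dashed line and 11 named genes whose interactions differed between times below it. The 5 chromosome 4 genes at the top keep their sign and approximate size, from 5.43 and 4.75 for AT4G20480 to 1.92 and 1.56 for AT4G25260, while *ERF104* goes from 2.41 to 0.28.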

How the data were processed

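Total RNA from whole plants of 4 genotypes at 2 times was sequenced in 22 libraries, which the study made with the TruSeq kit and read as single reads on a HiSeq instrument. The label written acd6-1-0 was taken as *acd6-1*. The submitters' processing notes name CASAVA and the TAIR10 build. For alignment and read counting, the program is not given in the sources used here. The authors deposited RPKM for 25218 transcripts, and the count of total reads per library, which was 15156605 to 20134373 at ZT1. 1 column with no name, which belongs to no sample, was not used. The length of each transcript was searched for as the smallest that made its values whole reads within 0.001 when multiplied back by mapped reads. By that search 100% of values were whole reads, which is no check of the lengths. Of the lengths found, 97.43% were multiples of 3, which the search did not require, so they were taken as coding lengths. RPKM divides by mapped reads, so a change in a few abundant transcripts shifts the values of all others, and near-identical genes may share reads. Strand use in counting is not stated.

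Values were tested as log2(RPKM + 1), which understates changes of weakly expressed genes, in limma 3.58.1 (R 4.3.3) with a trended prior variance and all 22 libraries in 1 model of the 8 groups, over the 21666 genes whose group mean exceeded 0.3 RPKM somewhere. The cutoff of 0.3 and the false discovery rate of 0.1 are those of the study, which applied that rate in a count model and used the logarithm with 1 added for clustering samples, so the test here is not the study's. The interaction test was also run on simulated reads, in which well-expressed genes were changed in *acd6-1lux-1* at ZT1 alone. That simulation changed no weakly expressed gene and gave no library a bias of its own, so it does not cover those cases. Symbols came from a RefSeq table of TAIR10.1, which matched 24867 identifiers, and 8 of 304 list entries had no identifier there. Genes were named as the 12 largest interactions of each sign (nuclear, changed, at least 5 RPKM in a group and without overlap), up to 4 passing members of each list by adjusted p, the genes the study names with *ACD6*, and the 4 largest of each sign with opposite effects. Others are said to be chosen after their values were seen. The genes in lists, the comparison and the rules were chosen with earlier results of these data known. The alternatives were other pseudocounts, filters and scalings, library weights, a replicate block, voom, edgeR 4.0.16 and DESeq2 1.42.0 on recovered reads, and leaving out each library. A planned search of promoters for binding motifs was not run.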

Additional observations from a re-analysis of the deposited data

Results flagged for a closer look

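The values here are differences between groups that passed the test of the difference itself, in limma with Benjamini-Hochberg adjustment. The effect of *lux-1* differed between backgrounds at ZT1 for 3474 genes, and by more than 1 on the log2 scale for 659. At ZT13 it differed between backgrounds for 127 genes. The difference between backgrounds itself differed between the 2 times for 84 genes.

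Of the genes named in the report, 11 passed the test between times. The ZT1 minus ZT13 difference of the interaction was 2.14 for *ERF104*, 2.29 for *ORA47* and 1.64 for *ZAT10*, stress transcription factor genes whose fall on the log2 scale was larger in Col-0 at ZT1. It was 3.04 for *XTH31*, 2.11 for *BGLU47*, 1.82 for AT4G21870 and 1.18 for *GRP8*. It was negative for *PAD4* (-1.62), *SOC1* (-0.98), *BGAL4* (-2.93) and *BAG6* (-2.03). In each case the ZT13 interaction on its own did not pass.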

How the results depend on the processing

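Settings and libraries are given with the genes passing the ZT1 interaction (3474, 1657 higher and 1817 lower) or changed in it (659, 240 and 419). At an adjusted p under 0.05, 1757 passed, 886 higher and 871 lower, and 266 changed lower. With library weights 1060 passed lower and 260 changed lower. Genes changed higher numbered 402 with 0.1 added to RPKM, 401 with voom, 451 with edgeR and 394 with DESeq2. The other settings kept these counts within 1.5 times. Leaving out 1 library at a time, 1615 to 5166 passed (806 to 3008 higher, 799 to 2158 lower) and 390 to 938 changed (176 to 378 higher, 211 to 560 lower). The cause was not tested.

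The ZT13 interaction passed for 75 genes with median-of-ratios scaling, 67 with the 10 libraries of that time, 294 with library weights, 49 with voom, 68 with edgeR, 314 with DESeq2 and 41 at an adjusted p under 0.05, and for 28 to 337 leaving out single libraries. The difference between times passed for 24 with median-of-ratios scaling, 161 with library weights, 20 without the variance trend, 23 with voom, 297 with DESeq2 and 14 at an adjusted p under 0.05, and for 9 to 162 leaving out single libraries.

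Of the 88 named genes that passed, 50 passed without any 1 library and 38 did not. *MYB122*, at -0.81 and under 3 RPKM, was 0.17 with edgeR. *SAUR65* passed without any 1 library (-1.09) but with none of 0.1 added, voom, edgeR and DESeq2. Libraries of different groups were also correlated after the group mean of each gene was subtracted. At ZT1 same-numbered libraries had correlations of -0.117 to 0.296, and differently numbered libraries of -0.208 to 0.249. Between Col-0 and *acd6-1* the same-numbered pairs were at 0.209, 0.204 and 0.096, and every other pair was negative. Deviations from a group mean sum to 0 within the group, so these negative signs largely follow from the positive ones and are no separate finding. Same-numbered pairs that included the *lux-1* group had both signs, and those among the other groups were all positive. What libraries of the same number share was not tested. With the replicate block 3057 passed and 627 changed, 87 passed at ZT13 and 73 between times. List counts and pattern counts under these settings were added after the data were seen.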

Other observations

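A few named genes belong to no list of the report. *MSRB8*, a methionine sulfoxide reductase gene in the chromosome 4 stretch, was at 0.729 to 1.54 RPKM in Col-0, 5.27 to 10.97 in *lux-1*, 82.5 to 89.4 in *acd6-1* and 22.5 to 76.3 in *acd6-1lux-1*, an interaction of -2.69 ± 0.54 (limma adjusted p = 0.0090). The neighboring genes AT3G28290 and AT3G28300 had nearly the same values, from 223, 116 and 152 RPKM in *lux-1* for the first to 218, 117 and 146 for the second, with interactions of -2.71 and -2.70. Reads may be shared between them, so the 2 may stand for 1 measurement. AT2G29500 was at 24.0, 34.98 and 25.2 RPKM in *acd6-1* and 3.52, 4.77 and 6.09 in *acd6-1lux-1* (-2.62 ± 0.34, adjusted p = 0.00052), and AT1G53540 had an interaction of -2.56 ± 0.36 (adjusted p = 0.00084). Both were lower in the double mutant than in every *acd6-1* library.

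Of the higher interactions, AT3G16670 had opposite effects, a fall of 1.15 in Col-0 and a rise of 1.15 in *acd6-1* (2.29 ± 0.40, adjusted p = 0.0037). It was at 41.9 to 62.0 RPKM in Col-0, 19.4 to 30.1 in *lux-1*, 23.6 to 34.8 in *acd6-1* and 46.9 to 84.7 in *acd6-1lux-1*, so the double mutant overlapped the wild-type range while both single mutants lay below it. AT3G05730 fell by 1.60 in Col-0 and differed by 0.46 in *acd6-1* (2.06 ± 0.36, adjusted p = 0.0041). *FLC*, the flowering repressor, was at 8.14, 9.70 and 11.7 RPKM in the double mutant, 2.77 to 4.07 in *acd6-1*, 4.93 to 5.87 in Col-0 and 4.13 to 8.69 in *lux-1*, so the double mutant lay above *acd6-1* and Col-0 and overlapped *lux-1*. Its interaction of 1.28 (adjusted p = 0.051) did not pass without Col-0 replicate 2 (1.24), *lux-1* replicate 2 (1.13), *acd6-1* replicate 3 (1.15) or *acd6-1lux-1* replicate 2 (1.29).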
